A study of Rattus norvegicus with 12 samples.

Results

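This account follows 10 genes that sit on or beside the cyclic AMP (cAMP) pathway, Sik1, Crem, Pde4b, Pde4d, Pde3a, Pkia, Pkib, Rgs2, Rgs4 and Rgs5, in rat heart cell cultures given SIN-1. The genes were chosen by symbol out of 18166 named genes, and all 10 were measured, by 11 probes in all since Pkib had 2. Sik1, Pkib and Rgs4 were chosen because their changes after SIN-1 had been noted in these same arrays, so their values against control and over time are given as a description, with no test. The other 7 were chosen by family and were tested.

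RNA of cells labelled primary rat cardiomyocytes, wild type, was hybridised to 12 whole-transcript arrays of a single colour, 3 per group for 4 groups. The groups were a control and cells treated with SIN-1 (3-morpholinosydnonimine, a donor of the oxidant peroxynitrite) for 70 min, 4 h or 8 h. All cells were grown in DMEM/F12 medium with fetal bovine and horse serum. The labels give no SIN-1 dose, no vehicle and no culture time for the control, and no age or sex of the animals, and the arrays are described as biological triplicates with no more said on separate cultures, so p-values measure the spread between these arrays.

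Cyclic AMP is made by adenylyl cyclases when a receptor activates the stimulatory G protein, and it switches on protein kinase A (PKA), which in heart muscle raises the rate and force of contraction. PKA also phosphorylates the transcription factor CREB, and several genes that CREB turns on encode proteins that end the signal: phosphodiesterases of the PDE4 family that break cAMP down, a short repressor form of CREM, and the salt-inducible kinase SIK1, which holds back the CRTC coactivators of CREB. The PKI proteins block the catalytic subunit of PKA directly, and RGS proteins shorten the activity of the Gi and Gq classes of G protein.

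The sequence to which CREB and CREM bind is the cAMP response element, in full TGACGTCA, which reads the same on both strands, or as the partial element TGACG, which reads CGTCA on the other strand and is contained in the full one. Stretches that hold these letters before the start sites of Crem, Sik1 and Rgs2, whose means were highest at 70 min, and of Rgs4, whose mean was lowest then, are printed here, 5′ to 3′ on the gene's strand, from the RefSeq promoter table of build GRCr8, with the matching letters in capitals. The Crem stretches lie before 2 starts inside the gene (chr17:58984697-58984796 and chr17:58985390-58985489, plus strand), that of Sik1 at chr20:9958787-9958886, that of Rgs2 at chr13:58352817-58352916 and that of Rgs4 at chr13:84475988-84476087 (all minus strand). In the labels, upstream and downstream tell the 2 internal Crem starts apart, and both stretches lie before their own start.
Crem, upstream of the 2 internal starts: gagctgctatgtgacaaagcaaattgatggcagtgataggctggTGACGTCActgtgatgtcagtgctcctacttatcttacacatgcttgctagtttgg
Crem, downstream of the 2 internal starts: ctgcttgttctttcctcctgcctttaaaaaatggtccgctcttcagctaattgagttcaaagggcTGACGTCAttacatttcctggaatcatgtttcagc
Sik1: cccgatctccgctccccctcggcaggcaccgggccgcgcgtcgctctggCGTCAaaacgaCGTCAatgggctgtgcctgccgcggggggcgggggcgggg
Rgs2: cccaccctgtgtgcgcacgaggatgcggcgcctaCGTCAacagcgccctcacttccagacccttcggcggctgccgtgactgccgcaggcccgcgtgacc
Rgs4: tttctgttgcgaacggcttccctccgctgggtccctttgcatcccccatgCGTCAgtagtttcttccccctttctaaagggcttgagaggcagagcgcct

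The table held windows for 9 of the 10 genes, 16 windows in all, each from 250 bases before to 50 after a start. The full element was in 2 of these windows, both of Crem, at 56 bases before one start and at 35 bases before the other, with a further copy 40 bases into the latter transcript. It was in 1.83% of all 33469 windows. The partial element on either strand was in 8 of the 16 windows, belonging to Sik1, Crem, Pde4d, Rgs2 and Rgs4, against 21.2% of all windows. In Sik1 it stood 191 and 180 bases before the start, in Rgs2 216 bases and in Rgs4 153 bases. The windows of Pde4b, Pde3a, Pkib and Rgs5 held neither. The letters were thus present both in genes whose values were high at 70 min and in Rgs4, whose values were low, and a match describes these letters alone.

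Values are log2 expression as summarised by the authors, so a difference of 1 is a 2-fold difference, and levels of different probes are not compared as amounts of RNA. A gene is called changed where the limma p-value, adjusted over all 18166 genes of a comparison, was under 0.05. Array medians ran from 4.98 to 5.12, and the 3 highest belonged to 70 min replicates 2 and 3 and to 4 h replicate 3. Results are therefore also given without these 3 arrays, a fit in which the lone remaining 70 min array is assumed to have the spread of the rest. Most markers of the labelled cell type lay below the median gene. Of 12 measured cardiomyocyte markers 4 had a mean above the median gene (5.75), namely Atp2a2 (9.73), Pln (7.94), Tnnc1 (7.14) and Tnnt2 (5.84). The myosin heavy chain genes Myh6 (3.78) and Myh7 (3.57) lay below the median of the probes with no gene listed (4.33). Actn2 (4.33), Ryr2 (4.20) and Ttn (4.49) lay near it. Of 9 fibroblast markers 7 lay above the median gene, with Col1a1 at 12.77, as did 6 of 7 smooth muscle and pericyte markers, with Tagln at 12.46, against 0 of 5 endothelial and 1 of 8 macrophage and leukocyte markers. In such bulk RNA, fewer cells of a type and less RNA per cell cannot be told apart.

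**Figure D1:**
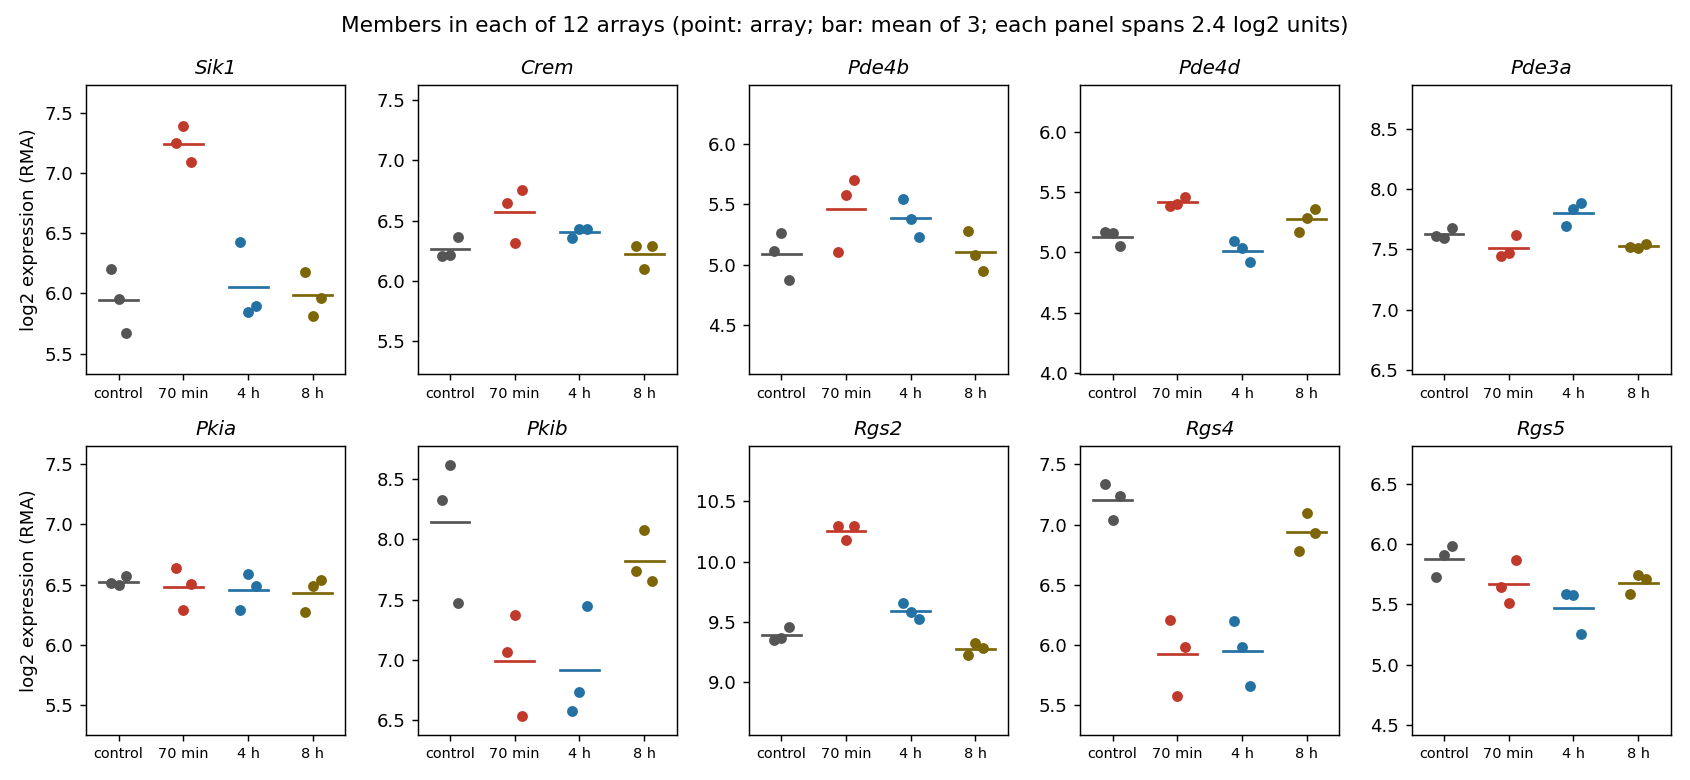
Log2 expression (vertical axes, all of equal span) of the 10 genes in each of the 12 arrays, with control and the 3 SIN-1 times along the horizontal axis. Points are arrays and bars are means of 3. Sik1 and Rgs2 stand apart at 70 min, Rgs4 is low at 70 min and 4 h with values of 5.57 to 6.21, and Pkia stays between 6.27 and 6.64 throughout.

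Among the RGS genes, Rgs2, whose product acts chiefly on the Gq class, rose at 70 min. Its control values were 9.35, 9.36 and 9.45, and at 70 min they were 10.29, 10.18 and 10.30. Every 70 min array stood above every control array. The rise was 1.83-fold (log2 difference 0.87 ± 0.06, SE, n = 3 per group, limma adjusted p = 4.3e-08). It was 0.91 without the 3 arrays of highest median (adjusted p = 5.9e-05) and between 0.82 and 0.91 under all 23 alternatives. Among all genes 1.13% differed from control by more at 70 min.

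The level of Rgs2 then came down past that of the controls. At 4 h its values were 9.66, 9.58 and 9.53, still above every control array but below every 70 min array. At 8 h they were 9.23, 9.33 and 9.28, each below the lowest control. The 4 group means therefore stood in the order 8 h, control, 4 h and 70 min, and no neighbouring groups in that order overlapped. The drop between 70 min and 4 h was called (log2 difference -0.67 ± 0.06, SE, limma adjusted p = 1.1e-06), as was the drop between 4 h and 8 h (-0.31 ± 0.06, adjusted p = 0.0058). The latter call ended without a trend in the prior variance (0.073) and with arrays centred on their medians (0.11). Against control, the differences of 0.20 ± 0.06 at 4 h (adjusted p = 0.075) and -0.11 ± 0.06 at 8 h (0.94) did not pass, although the former passed among the brighter genes alone (0.042) and with array weights (0.048).

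Rgs4 encodes an RGS protein that acts on both Gi and Gq, and its values went the other way. They were 7.34, 7.04 and 7.24 in the controls, 6.21, 5.57 and 5.99 at 70 min, and 6.20, 5.98 and 5.66 at 4 h. All 6 arrays of 70 min and 4 h lay below all controls, and the values of 70 min and 4 h overlapped. The means were 2.43-fold lower at 70 min (log2 difference -1.28 ± 0.16, SE) and 2.39-fold lower at 4 h (-1.26 ± 0.16). The gene was chosen for its low values in these arrays. Without the 3 arrays of highest median the differences were -0.99 and -1.11.

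By 8 h Rgs4 stood near the controls again, at 6.78, 7.09 and 6.93. These values overlapped those of the controls, with a mean lower by 0.27 on the log2 scale (-0.27 ± 0.16, SE), and lay above all values of 4 h. The mean at 8 h was 1.98-fold that at 4 h (0.99 ± 0.16, SE). The SD of Rgs4 was 0.32 at 70 min and 0.15 in the controls.

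Rgs5, which lies next to Rgs4 on chromosome 13 with no annotated gene between them in the GRCr8 table, encodes a related protein that is abundant in pericytes and vascular smooth muscle. Its values were 5.73, 5.91 and 5.98 in the controls and 5.59, 5.58 and 5.25 at 4 h. The 4 h arrays were all below the controls, while those of 70 min (5.64, 5.51 and 5.86) and 8 h (5.58, 5.74 and 5.71) overlapped them. The difference at 4 h, -0.40 ± 0.13 (SE), did not pass over all genes (limma adjusted p = 0.11), nor did -0.20 ± 0.13 at 70 min (0.35) or -0.19 ± 0.13 at 8 h (0.94). Beside this, 2 of 7 smooth muscle and pericyte markers were called lower at 4 h, Pdgfrb by 0.49 and Notch3 by 0.41, and none higher. Of all genes 1.77% were called lower at that time. At 70 min 1 was higher and 1 lower, and at 8 h none passed. The mean level of that list was 8.09 to 8.13 in control arrays, 8.11 to 8.19 at 70 min, 8.04 to 8.12 at 4 h and 8.16 to 8.24 at 8 h, and its part in the values of Rgs4 and Rgs5 was not tested.

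Sik1, the salt-inducible kinase induced by cAMP in many tissues, was high at 70 min alone. The control values were 6.20, 5.96 and 5.67, and those of 70 min 7.25, 7.39 and 7.09. At 4 h they were 6.42, 5.84 and 5.90, and at 8 h 6.18, 5.81 and 5.96. All 70 min arrays lay above the other 9 arrays, and the control, 4 h and 8 h arrays overlapped one another. The mean at 70 min was 2.47-fold that of the controls (log2 difference 1.30 ± 0.16, SE), the value for which it was chosen, and between 1.17 and 1.43 under the 23 alternatives. At 4 h the mean was 1.19 below that of 70 min (log2 difference -1.19 ± 0.16, SE), and against control it was 0.11 ± 0.16 at 4 h and 0.04 ± 0.16 at 8 h.

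Its paralogue Sik2 was steadier. Sik2 was higher by 0.22 ± 0.07 (SE) at 70 min (limma adjusted p = 0.045) and by 0.30 ± 0.07 at 4 h (adjusted p = 0.022), and stood at 0.25 ± 0.07 at 8 h, which did not pass (0.59). Both calls were close to the threshold. That at 70 min ended in 9 of the 12 fits that each left out 1 array, including each of the 6 arrays compared (adjusted p from 0.051 to 0.13), and in the fit without the 3 arrays of highest median (0.20). The call at 4 h ended in 5 of the 12 (0.051 to 0.093), namely without any of the controls or without 4 h replicate 1 or 2. It also ended without the 3 arrays of highest median (0.053), with arrays centred on their medians (0.12) and without a trend in the prior variance (0.068).

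Crem, whose gene can produce both activators and repressors of cAMP-driven transcription, shifted little. The control values were 6.21, 6.22 and 6.37, and those of 70 min 6.64, 6.32 and 6.76. Control replicate 3 and 70 min replicate 2 overlapped. The difference of 0.31 ± 0.12 (SE) did not pass (limma adjusted p = 0.088), and it passed without 70 min replicate 2 (0.44, adjusted p = 0.018) and after a further quantile normalization (0.35, 0.048). At 4 h the values were 6.36, 6.43 and 6.43, with a difference of 0.14 ± 0.12 (adjusted p = 0.64), and at 8 h 6.29, 6.10 and 6.29, with -0.04 ± 0.12 (0.99). The Crem locus was read by 1 probe with that symbol, so transcripts from the internal starts with the full element and those from the upstream start are not separated.

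**Figure D2:**
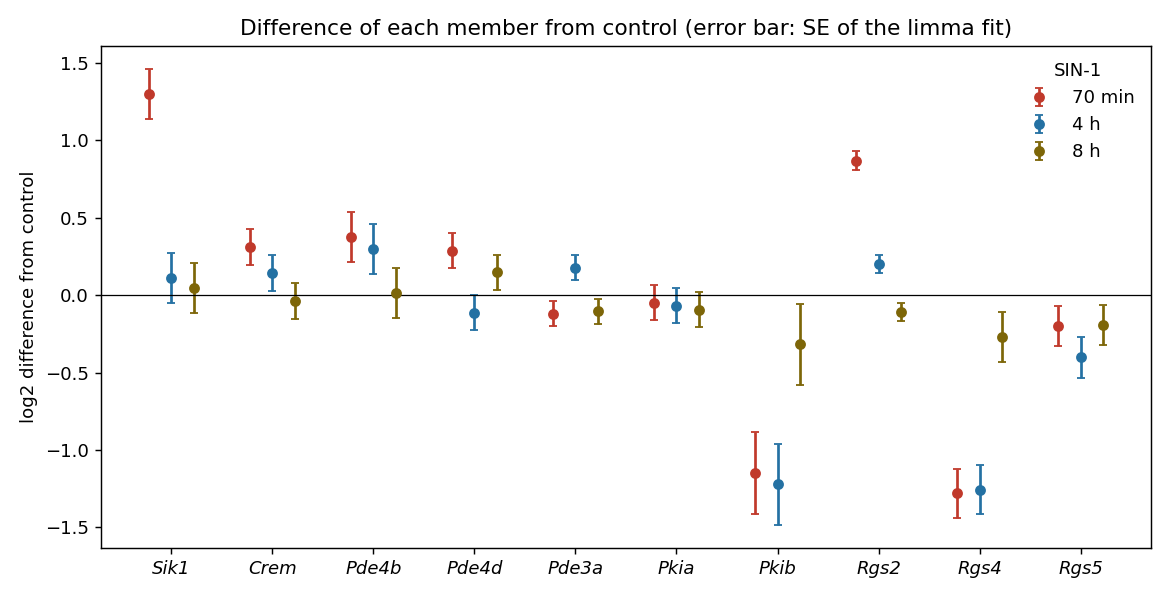
Log2 difference from control (vertical axis) of each gene after 70 min, 4 h and 8 h of SIN-1, with error bars showing the SE of the limma fit (3 arrays per group). Sik1 (1.30) and Rgs2 (0.87) lie highest at 70 min, Rgs4 and Pkib lie lowest at 70 min (-1.28 and -1.15) and 4 h (-1.26 and -1.22), and at 8 h Pkib lies farthest from control (-0.32).

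The PKI genes encode small proteins that occupy the catalytic site of PKA and carry it out of the nucleus, and the 3 of them were not alike. Pkib, by its brighter probe, read 8.33, 8.62 and 7.47 in the controls, 7.07, 7.37 and 6.54 at 70 min, and 6.58, 6.73 and 7.45 at 4 h. All treated arrays of these times lay below all controls, but only narrowly so for control replicate 3, which stood well below the other 2. The means were 2.22-fold lower at 70 min (log2 difference -1.15 ± 0.26, SE) and 2.33-fold lower at 4 h (-1.22 ± 0.26), and Pkib was chosen for such low values. At 8 h the values of 7.73, 8.08 and 7.65 overlapped those of the controls (-0.32 ± 0.26) and exceeded all of 4 h.

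The size of the Pkib difference was less certain than that of Rgs4. Its SD among controls was 0.60 against 0.15 for Rgs4. At 8 h the difference was -0.65 without control replicate 3 and -0.08 without control replicate 2, and -0.22 without control replicate 1, so the value at that time rested on single controls. The second Pkib probe was dim, with a mean of 3.00 that 7.6% of gene means lay below. It read 3.53, 3.13 and 2.80 in the controls, 2.96, 2.99 and 2.83 at 70 min and 2.61, 2.86 and 3.18 at 4 h, which overlapped. Its differences were -0.23 ± 0.18 and -0.27 ± 0.18 (SE). The mean of both probes gave -0.69 at 70 min and -0.75 at 4 h.

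Pkia, the form first known from muscle, did not pass at any time. Its values ran from 6.27 to 6.64 over all 12 arrays, and each group overlapped every other. The differences from control were -0.05 ± 0.11, -0.07 ± 0.11 and -0.09 ± 0.11 (SE) at 70 min, 4 h and 8 h (limma adjusted p = 0.83, 0.86 and 0.98). Pkig, the remaining PKI gene and not one of the 10, rose at 70 min, from 7.37, 7.35 and 7.49 to 8.00, 7.98 and 8.05. The rise was 1.52-fold (0.61 ± 0.08, SE, adjusted p = 9.3e-05) and held under all 23 alternatives (adjusted p up to 0.010). Pkig was back at 7.53 ± 0.12 (SD, n = 3) at 4 h, where the difference of 0.13 did not pass (0.53).

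**Figure D3:**
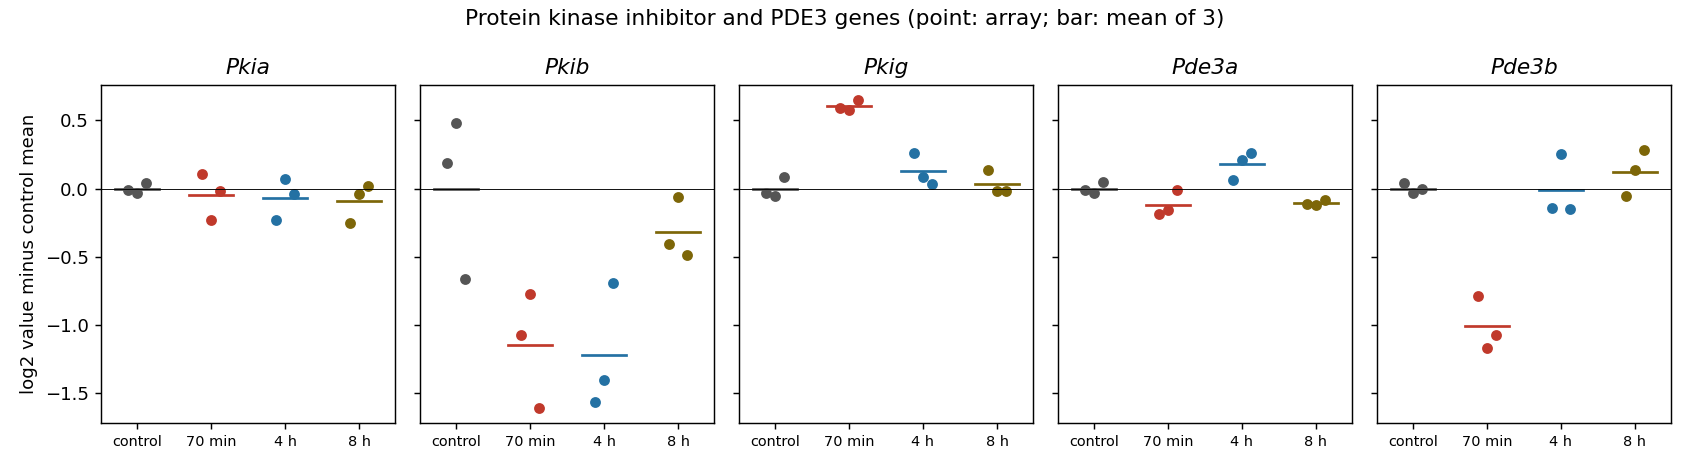
Log2 value minus the control mean (vertical axis) of the 3 PKI genes and the 2 PDE3 genes in each array, by group. Points are arrays and bars are means of 3. Pkib lies low at 70 min and 4 h, Pkig high at 70 min (0.61), Pde3b low at 70 min (-1.01), and Pkia and Pde3a lie near their control means.

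Phosphodiesterases end the signal by hydrolysing cAMP, and the PDE4 enzymes are the main cAMP-specific family. Pde4d read 5.17, 5.16 and 5.05 in the controls and 5.38, 5.40 and 5.46 at 70 min, with no overlap. The difference of 0.29 ± 0.11 (SE) nevertheless did not pass over all genes (limma adjusted p = 0.10), and it passed without a trend in the prior variance (0.043). At 4 h the values were 5.09, 5.03 and 4.92, with -0.11 ± 0.11 against control (0.72), and at 8 h 5.17, 5.29 and 5.36, with 0.15 ± 0.11 (0.95). From 70 min to 4 h Pde4d fell by 0.40 (-0.40 ± 0.11, SE, adjusted p = 0.036). That call ended in 7 of the 12 fits that left out 1 array, namely without 70 min replicate 2 or 3, any of the 4 h replicates, control replicate 1 or 8 h replicate 2 (adjusted p from 0.052 to 0.12), and without the 3 arrays of highest median (0.49).

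Pde4b, the PDE4 gene most often described as induced by cAMP, gave a wider spread. Its controls read 5.11, 5.27 and 4.88, and at 70 min the values were 5.11, 5.58 and 5.71. The first 70 min array lay among the controls and the other 2 above them. The difference was 0.38 ± 0.16 (SE, limma adjusted p = 0.14). It was 0.56 without 70 min replicate 1, which passed (0.019), and 0.02 without the 3 arrays of highest median, 2 of which are the high 70 min arrays. At 4 h the values were 5.55, 5.38 and 5.23 (0.30 ± 0.16, adjusted p = 0.42) and at 8 h 5.28, 5.08 and 4.95 (0.02 ± 0.16, 0.998), both overlapping the controls. Whether Pde4b was higher at 70 min thus depended on which arrays were included.

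Pde3a encodes the cGMP-inhibited phosphodiesterase that is prominent in heart muscle and vascular smooth muscle. It read 7.62, 7.59 and 7.68 in the controls, 7.44, 7.47 and 7.62 at 70 min, 7.69, 7.84 and 7.89 at 4 h, and 7.52, 7.51 and 7.55 at 8 h. The 4 h arrays lay above all controls and the 8 h arrays below them. None of the differences from control passed, at -0.12 ± 0.08 (SE, limma adjusted p = 0.37), 0.18 ± 0.08 (0.31) and -0.10 ± 0.08 (0.95). The increase of 0.30 ± 0.08 from 70 min to 4 h was called (adjusted p = 0.031). It ended without 70 min replicate 1 or 2 or 4 h replicate 2 or 3 (0.073 to 0.11) and without the 3 arrays of highest median (0.23). The decrease of 0.28 from 4 h to 8 h did not pass (0.071).

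Its paralogue Pde3b, which is known for lowering cAMP in fat cells in response to insulin, fell at 70 min. It read 7.23, 7.16 and 7.19 in the controls and 6.41, 6.03 and 6.12 at 70 min. The fall was 2.01-fold (-1.01 ± 0.13, SE, limma adjusted p = 3.1e-05) and was -0.79 without the 3 arrays of highest median (0.011). At 4 h, with 7.05, 7.45 and 7.05, it had returned (-0.01 ± 0.13 against control, 0.99). The return of Pde3b from 70 min to 4 h was 0.999 ± 0.13 (adjusted p = 6.2e-05).

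Counted together, 1 of the 7 tested genes, Rgs2, was called at 70 min, or 14.3%, where 14.6% of all genes were called, 6.76% higher and 7.81% lower. Their median difference was 0.29 against 0.03 for all genes, and 4 of 7 had an unadjusted p under 0.05 (Crem, Pde4b, Pde4d and Rgs2), as had 27.8% of all genes. At 4 h limma called 0 of 7, where 3.85% of all genes were called, 2.08% higher and 1.77% lower. At an unadjusted p under 0.05 there were 3 of 7 (Rgs2, Rgs5 and Pde3a) and 15.1% of all genes. At 8 h it called 0 of 7, where 0.0275% of all genes were called, and 0 had an unadjusted p under 0.05, as had 5.47% of all genes. Between 70 min and 4 h 3 of 7 were called (Rgs2 and Pde4d lower, Pde3a higher) against 7.63% of all genes (4.48% higher and 3.15% lower), and between 4 h and 8 h 1 of 7 (Rgs2, lower) against 3.51% (1.54% lower). The groups did not overlap for 2 of 7 at 70 min, 3 of 7 at 4 h and 3 of 7 at 8 h, where 31.8%, 20.3% and 13.2% of all genes did not overlap. The comparisons with control share the same 3 control arrays. The count at 70 min was near that over all genes, so it sets the 7 genes apart in no way. It was 2 without 70 min replicate 1 or 2, and the count between 70 min and 4 h was 1 without 70 min replicate 2 or 4 h replicate 2 or 3, and that between 4 h and 8 h was 2 without 4 h replicate 1.

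The genes whose time courses came nearest to those of the 3 noted genes were sought among 9016 named genes at or above the median level, by the root mean square distance over the 3 differences from control. For Rgs4 the nearest was Pkib (0.08 log2 units) and for Pkib it was Rgs4. Both had been noted for low values at 4 h, so this is a description. Next to Rgs4 came Egr1, an immediate early transcription factor, at 0.12, and Adgrl3, an adhesion receptor, at 0.22. Next to Pkib came Egr1 at 0.20 and Vof16 at 0.20. For Sik1 the nearest were Hk2, a hexokinase (0.16), Klf4, a transcription factor (0.18), and Slc16a14, a transporter gene (0.18), each above control by 1.02 to 1.16 at 70 min.

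The rest of the pathway was described by 7 lists of genes that are not among the 10, chosen with earlier results of these data known. Of 120 listed genes 109 were tested, and Sik3 and Prkar1a were among those not analysed here. At 70 min 27 of the 109 passed, 15 higher and 12 lower, or 24.8%, against 14.6% of all genes, with a median difference of 0.08 against 0.03 for all genes. The count was 17, 16 and 17 on leaving out control replicate 1, 2 or 3. Over all genes 2647 were called with all 12 arrays, and 1751, 1978 and 1951 on leaving out those controls. Both counts were also lower without the 3 arrays of highest median. The split depended on scaling, with 10 higher and 12 lower where arrays were centred on their medians, and 17 against 7 in a model with a term for the array median. The split over all genes moved likewise. Of those called, 46.4% were higher, with 33.3% for centred arrays and 55.6% with that term. At 4 h 10 passed, 5 in each direction (9.17%, against 3.85% of all genes), and 5 when control replicate 2, control replicate 3 or 4 h replicate 1 was left out. Over all genes 699 were called at 4 h, and 373, 444 and 437 in those fits. With arrays centred on their medians 1 pathway gene was higher and 4 lower at 4 h. Of all genes called at 4 h, 46.3% were higher with centred arrays, against 54.1% without centring. At 8 h 0 passed by limma, with 12 of 109 at an unadjusted p under 0.05 (11%, against 5.47% of all genes).

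The list of receptors and G proteins held 21 tested genes, among them receptor kinase, arrestin and Gq subunit genes. Of these 21 genes 2 rose and 1 fell at 70 min. This share of 14.3% was close to the 14.6% of all genes, and none of the list passed at 4 h. Gnas, which encodes the stimulatory G protein subunit, read 5.18, 5.19 and 5.34 in the controls and 5.70, 6.16 and 5.93 at 70 min, a rise of 0.69 ± 0.13 (SE, limma adjusted p = 0.0016). It was 0.46 without the 3 arrays of highest median, where the call did not hold. The dimmer Gnas probe (mean 4.27) gave 0.38, which did not pass (limma adjusted p = 0.16). The prostaglandin receptor gene Ptger4 fell by 0.51 (adjusted p = 0.014), which no longer passed once control replicate 2 or 3 was left out (0.053 and 0.072), or the 3 arrays of highest median (0.19). Grk5, a receptor kinase gene, was higher by 0.31 (0.048), and 9 of the 12 fits that left out 1 array ended that call (0.053 to 0.17). The cardiac beta receptor gene Adrb1 stood at 0.20 ± 0.14 (0.40). None of the 9 adenylyl cyclase genes passed at 70 min or 4 h, where 1 and 0 had an unadjusted p under 0.05.

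The list of other phosphodiesterase genes held 15 tested genes, among them Pde4dip, which encodes a protein that binds PDE4D and is no phosphodiesterase. Of these 15 genes 3 fell and none rose at 70 min (20% passed, against 14.6% of all genes), and none passed at 4 h. Beside Pde3b these were Pde1c, a calcium-stimulated form, which fell by 0.52 (limma adjusted p = 0.0083), and Pde5a, the cGMP-specific form, which fell by 0.36 (0.040). Pde1c was dim, with means of 4.49 in the controls and 3.96 at 70 min. The median of the probes with no gene listed was 4.33. The call of Pde5a ended in 5 of the 12 fits that left out 1 array (without any control, 70 min replicate 2 or 8 h replicate 2, 0.057 to 0.21) and without the 3 arrays of highest median (0.46). Pde4a stood at -0.03 ± 0.12 (SE, 0.90).

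Of 19 genes for PKA subunits, the inhibitor Pkig described above, PKA anchors and related cAMP sensors, 5 rose and 2 fell at 70 min (36.8% passed, against 14.6% of all genes), and 2 rose at 4 h (10.5% against 3.85%). Pkig was 1 of the 5 that rose. The anchor gene Akap12 went from 8.62, 8.56 and 8.54 to 9.56, 9.39 and 9.55, a rise of 0.92 ± 0.06 (SE, limma adjusted p = 4.6e-08), and was still higher by 0.29 at 4 h (0.013), which no longer passed once control replicate 2 or 3 was left out (0.058 and 0.067), with centred arrays (0.10) or without the trend (0.079). Akap6, which anchors PKA at the nuclear envelope and sarcoplasmic reticulum of muscle cells, rose by 0.83 at 70 min (0.00023). Prkar2a, a regulatory subunit gene of PKA, rose by 0.74 at 70 min (4.2e-05) and by 0.54 at 4 h (0.0030). Akap9 fell by 0.83 (0.036), a call that ended without any control or without 70 min replicate 2 or 3 (0.066 to 0.15) and without the 3 arrays of highest median (0.45). The catalytic subunit gene Prkaca stood at 0.16 ± 0.08 at 70 min (0.21) and 0.30 ± 0.08 at 4 h (0.052).

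The list of CREB factors and salt-inducible kinases held 8 tested genes, among them Stk11, which is neither. Of these 8 genes 2 passed at 70 min (25%, against 14.6% of all genes) and 1 at 4 h (12.5% against 3.85%). Sik2 rose at both times, and Crtc1 fell by 0.34 at 70 min (limma adjusted p = 0.023), a call that ended without any control or 70 min replicate 1 or 2 (0.054 to 0.10) and without the 3 arrays of highest median (0.071). Creb1 read 7.79, 7.24 and 7.41 in the controls and 7.14, 6.46 and 7.02 at 70 min. These did not overlap, but the difference of -0.61 ± 0.22 (SE) did not pass (0.074). It passed with array weights (0.024), with the 2 compared groups alone (0.021) and without 70 min replicate 1, 4 h replicate 2 or 8 h replicate 1 (0.041 to 0.046). It was -0.40 without 70 min replicate 2 (0.31) and -0.34 without the 3 arrays of highest median (0.66), and the dimmer Creb1 probe gave -0.31 (0.24).

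The CREB target genes outside the 10 moved both ways. At 70 min 7 of 18 rose and 4 fell (61.1% passed, against 14.6% of all genes), and at 4 h 2 rose and 5 fell (38.9% against 3.85%). The NR4A nuclear receptor genes rose most at 70 min, Nr4a1 by 2.38 ± 0.13 (SE, limma adjusted p = 3.5e-09), Nr4a3 by 1.95 and Nr4a2 by 1.90, and none passed against control at 4 h, where Nr4a2 stood at 0.32 (0.088). Egr1 fell by 1.38 ± 0.09 at 70 min and by 1.36 ± 0.09 at 4 h. Dusp1 fell by 1.18 at 70 min (limma adjusted p = 1.1e-08) and by 0.78 at 4 h (9.5e-06). Fos fell by 0.60 at 70 min (0.012) and by 0.78 at 4 h (0.0064). The 70 min call of Fos ended without control replicate 2 (0.0513) or 70 min replicate 3 (0.0504). That call did not hold either without the 3 arrays of highest median, where the difference was -0.56. Junb fell by 0.59 at 4 h (0.024), a call that ended without any control or without 4 h replicate 1 or 3 (0.069 to 0.099), without the 3 arrays of highest median (0.082), with centred arrays (0.051) and without the trend (0.065). The list of other RGS genes held 19 tested genes, among them Axin1 and Axin2, which are not RGS genes by symbol. Of these 19 genes 1 passed at 70 min (5.26%, against 14.6% of all genes). It was the dim Rgs13 (mean 2.73 in the controls), which fell by 0.49 (limma adjusted p = 0.032). The Rgs13 call was lost on leaving out control replicate 1, control replicate 3 or any 70 min replicate (0.066 to 0.16). It did not hold either without the 3 arrays of highest median, where the difference was -0.57. None of the 19 passed at 4 h, and Rgs3 stood at 0.01 ± 0.11 at 70 min (0.97).

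**Figure D4:**
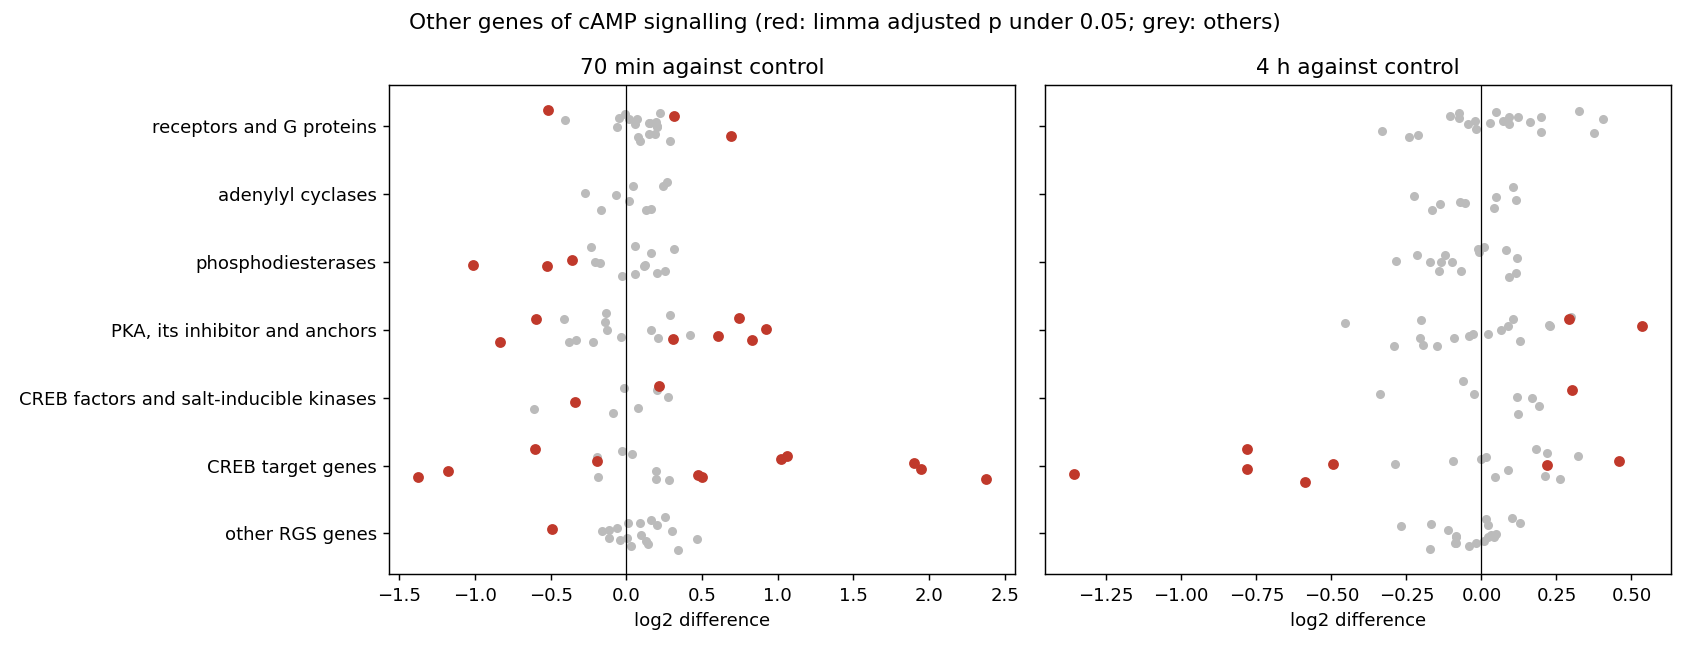
Log2 difference from control (horizontal axes) at 70 min and at 4 h for the 109 tested genes of cAMP signalling that are not among the 10, one point per gene and one row per list. Red points passed at a limma adjusted p under 0.05, 27 at 70 min and 10 at 4 h, and the CREB target genes spread widest, from -1.38 to 2.38 at 70 min.

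Markers of other cells moved beside these results. Over all genes 6.76% were called higher and 7.81% lower at 70 min, and 2.08% and 1.77% at 4 h. At 70 min 3 of 9 fibroblast markers were lower, Lum by 1.42, Dcn by 1.05 and Col3a1 by 0.41. The rest did not pass, with differences from -0.20 (Pdgfra) to 0.24 (Tcf21). The mean level of the list was 9.35 to 9.46, against 9.70 to 9.73 in controls. At 4 h 1 of 9 was lower and the list stood at 9.55 to 9.68, and at 8 h none passed and it stood at 9.71 to 9.81. Of 12 cardiomyocyte markers 1 was higher at 70 min (Atp2a2, by 0.52), and at 4 h 1 was higher and 1 lower. Their mean level was 5.44 to 5.55 in controls and 5.47 to 5.70 at 70 min. Of 5 endothelial markers Tek was lower at 70 min by 0.88, and 0 of 8 macrophage and leukocyte markers passed at any time. The part of these shifts in the values of the 10 genes was not tested.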

How the data were processed

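The authors' table holds log2 expression of 36685 probes on 12 arrays, made with RMA (background correction, quantile normalization, summary by probe set) in Affymetrix Expression Console, version 1.3.1.187; tool and version come from the submitters' processing notes. The log2 scale was inferred from the range, 1.19 to 13.63. Quantile normalization removes differences in total RNA, and folds of dim probes are compressed. The genome build was not given in the sources used here. By the platform annotation 18511 probes carried 1 symbol, 575 several (left out), and 17599 were unlisted. Of 291 genes with several probes the brightest was kept. Gene identifiers of 18394 probes matched RefSeq's GRCr8 table, and 0 symbols changed.

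A group-means model over all 12 arrays was fitted with limma 3.58.1 in R 4.3.3 (eBayes with a trend), with two-sided tests and Benjamini-Hochberg adjustment over 18166 genes in each of 5 comparisons. Errors are SEs of the fit or SDs over 3 arrays, whose number limits the precision. On simulated data for 70 min against control (18166 genes), changes of 1 on the log2 scale were found in 92.5% of 67 genes, changes of 0.5 in 35.8% of 67 and changes of 0.3 in 13.6% of 66. Only these genes were changed in the simulation, while 14.6% of all genes were called in the data. The shares found therefore need not hold for the data. The members and lists were chosen with earlier results of these data known. Named genes were the 10 members, up to 4 called genes per list and comparison with control (largest difference first), 13 always named (Sik3 and Prkar1a were among those not tested), and the 3 nearest time courses, passing over symbols of unnamed loci and of receptor or RNA families. Alternatives covered variance settings, weights, scaling, filters, probe choice and leaving out arrays. Protein sequences were not used here. Figures were drawn with matplotlib 3.10.9.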

Additional observations from a re-analysis of the deposited data

Results flagged for a closer look

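The effect of SIN-1 differed between times for 3 of the tested genes. Of all genes 7.63% were called between 70 min and 4 h, and 3.51% between 4 h and 8 h. Rgs2 was lower at 4 h than at 70 min by 0.67 on the log2 scale (-0.67, limma adjusted p = 1.1e-06, lower in 3 of 3 arrays) and lower at 8 h than at 4 h (-0.31, adjusted p = 0.0058). All Rgs2 arrays of 70 min and 4 h lay above the controls and all of 8 h below them. The difference of -0.98 between 8 h and 70 min was not tested. Against control, Rgs2 did not pass at 4 h (limma adjusted p = 0.075) or 8 h (0.94). Of all genes 31.8%, 20.3% and 13.2% did not overlap the controls at 70 min, 4 h and 8 h. Pde4d was lower at 4 h than at 70 min (-0.40, adjusted p = 0.036) and Pde3a higher (0.30, adjusted p = 0.031). The Pde4d call ended in 7 of the 12 fits that left out 1 array and the Pde3a call in 4 of the 12. Neither call held without the 3 arrays of highest median, where the differences were -0.32 for Pde4d and 0.32 for Pde3a. All Pde3a arrays of 4 h lay above the controls and all of 8 h below, and that difference of -0.28 did not pass (adjusted p = 0.071).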

How the results depend on the processing

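Results were recomputed under 23 alternatives, or 22 for genes below the median level, which the fit of brighter genes leaves out. At 70 min the count of tested members called was 2 without a trend in the prior variance (Pde4d added), with array weights (Pde4b) and after a further quantile normalization (Crem), and ranged from 1 to 2 when each array was left out. At 4 h it was 1 with array weights or the brighter genes alone (Rgs2), and 0 in all fits without 1 array. Between 70 min and 4 h it was 1 with array weights, a further quantile normalization, the compared groups alone or without the 3 arrays of highest median, and 1 to 3 without 1 array. Between 4 h and 8 h it was 0 without the trend or with centred arrays, 2 among the brighter genes, and 1 to 2 without 1 array. At 8 h against control all counts were 0. For the pathway genes, the count of 27 at 70 min was 35 with array weights, 30 after the further quantile normalization and 16 to 28 without 1 array. That of 10 at 4 h was 5 without the trend or with centred arrays, and 5 to 11 without 1 array. That of 14 between 70 min and 4 h was 13 to 16 without 1 array, and that of 7 between 4 h and 8 h was 5 to 8. The pathway counts at 70 min and between 70 min and 4 h were lower without the 3 arrays of highest median, as were those over all genes. Over all genes the count at 70 min was 2647, against 3626 with array weights and 2973 after the further quantile normalization. At 4 h it was 699, against 339 without the trend and 341 with centred arrays. The brighter genes leave out the members Pde4b, Pde4d and Rgs5. The cause was not tested.

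Deviations from the group means correlated at -0.32 to 0.24 (median -0.01) between arrays with the same replicate number. Between arrays with different numbers the range was -0.41 to 0.40 (median 0.01). Of the 12 arrays 6 correlated best with an array of their own number. With the replicate number as a block the members' counts were 1, 0 and 0 against control, 2 between 70 min and 4 h and 1 between 4 h and 8 h, and the pathway counts 25, 9, 0, 15 and 7. Among the named genes the calls of Pde4d between 70 min and 4 h (0.056) and of Grk5 at 70 min (0.052) ended there.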
